A study of Mus musculus with 50 samples.

Results

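The 50 genes described here encode nucleolar ribosome biogenesis factors, the proteins that build ribosomal subunits from newly made ribosomal RNA (rRNA). They were chosen by symbol, from a list drawn up with earlier results of these data known, and all 50 matched 1 Ensembl gene each among the 21647 genes of the deposited count table. The study measured polyadenylated RNA of splenic CD8+ T cells taken with magnetic beads from 10-week-old mice, in 5 knockout (KO) mice and 5 wild-type (WT) mice labelled as strain C567BL/6J. The KO mice carry a germline knockout allele, so the deletion is not limited to T cells. Cells of each mouse were sequenced naive (0h) and after 2, 6, 12 and 24h in culture with 2 ug/ml plate-coated anti-CD3e and 2 ug/ml soluble anti-CD28, antibodies that stand in for antigen and costimulation. This gives 10 groups of 5 libraries, and each later time of a genotype is compared with its 5 libraries at 0h. The labels number the mice, and a number marks the same animal at all times of its genotype.

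Ribosomes are assembled in the nucleolus. RNA polymerase I makes a long precursor rRNA there, small nucleolar RNPs (snoRNPs) guide its chemical modification, and many assembly factors fold, cut and carry it together with ribosomal proteins into a small and a large subunit. A naive T cell is small and makes little protein, and activation through the antigen receptor is known to raise ribosome production before the first division, with Myc among the known activators of these genes. The 50 factors fall into 5 roles: the box C/D snoRNP core (3 genes), the box H/ACA snoRNP core (4), abundant nucleolar proteins (4), small subunit assembly (19) and large subunit assembly (20).

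Library totals ran from 9571625 to 31293872 counts with a median of 23548632, and all 50 factors were among the 13294 genes that passed the filter on low counts. WT mice 1 and 4 stood apart from the other 8 mice. The 8 immature thymocyte markers summed at 0h to 43.7 to 122 in KO mice, in counts scaled to a common library size (CPM), 54.3 to 88.6 CPM in WT mice 2, 3 and 5, while WT mice 1 and 4 had 1310 to 1740 CPM. The 16 genes of cell division summed at 0h to 325 to 1200 CPM in KO mice, 140 to 214 CPM in WT mice 2, 3 and 5, while WT mice 1 and 4 had 5630 to 7020 CPM. Their 6h sums were 89.2 to 373 CPM in KO mice, 89.5 to 91.2 CPM in WT mice 2, 3 and 5, while WT mice 1 and 4 had 5040 to 6850 CPM. All 7 CD8 T cell markers were present, and they summed at 0h to 6180 to 8280 CPM in KO mice, 7130 to 17800 CPM in WT mice 2, 3 and 5, while WT mice 1 and 4 had 3490 to 4010 CPM. The 8 erythroid and platelet markers summed at 0h to 15 to 56.2 CPM in KO mice, 2.64 to 78.2 CPM in WT mice 2, 3 and 5, while WT mice 1 and 4 had 105 to 148 CPM. The 4 NK cell markers summed at 0h to 92.0 to 236 CPM in KO mice, 55.1 to 97.5 CPM in WT mice 2, 3 and 5, while WT mice 1 and 4 had 3.11 to 21.1 CPM. At 6h the 4 CD4 T cell markers summed to 23.6 to 43.4 CPM in KO mice, 30.7 to 40.9 CPM in WT mice 2, 3 and 5, while WT mice 1 and 4 had 109 to 138 CPM. The part of these marker genes in the results below was not tested, and the counts of factors called and most WT values are given also without WT mice 1 and 4. The 0h library of WT mouse 3, which is 1 of the 3 WT libraries then left at 0h, stood apart as well. Its 50 most abundant genes held 23.8% of its counts, against 8.55% to 14.8% in the other 49 libraries, its TMM scaling factor was 0.783, against 0.918 to 1.12, and it had the CD8 marker sum of 17800 CPM. Leaving it out too was an alternative chosen after seeing the data, and its counts are given where they differ. In RNA from whole cultures, fewer cells of a type and less RNA per cell cannot be told apart.

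The mean level of the factors was higher at 6, 12 and 24h than at 0h in all KO mice and in WT mice 2, 3, 4 and 5. The mean log2 CPM of the 50 factors in KO mice was 6.5 ± 0.141 in naive cells, 6.72 ± 0.0803 at 2h, 8.27 ± 0.107 at 6h, then 8.32 ± 0.0406 at 12h and finally 8.04 ± 0.0272 at 24h (SD, n = 5 mice). In all 5 WT mice it was 6.69 ± 0.395, 6.81 ± 0.192, 7.89 ± 0.787, 7.97 ± 0.64 and 7.85 ± 0.373 at the same times (SD, n = 5). In WT mice 2, 3 and 5 it was 6.42 ± 0.181, 6.68 ± 0.104, 8.44 ± 0.0605, 8.40 ± 0.0729 and 8.04 ± 0.0167 (SD, n = 3). So the step lay between 2 and 6h, and the level at 24h was below that at 6h in all 5 KO mice and in WT mice 2, 3 and 5. WT mouse 1 had 7.17 at 0h, 6.73 at 6h and 7.19 at 24h. WT mouse 4 had 7.03 at 0h, 7.41 at 6h and 7.94 at 24h. These mice were above the other WT mice at 0h and below them at 6 and 12h.

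**Figure D1:**
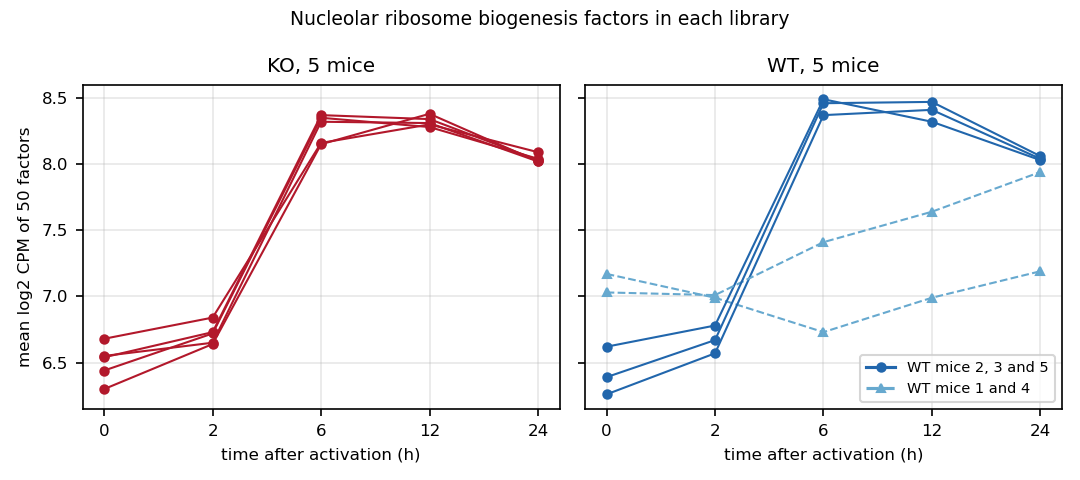
Mean log2 CPM of the 50 factors (vertical axis) in each library by time after activation in hours (horizontal axis, times evenly spaced), for KO mice on the left and WT mice on the right, each line a mouse. The 5 KO mice lie between 8.15 and 8.37 at 6h, while WT mice 1 and 4 (dashed lines, triangles) lie at 6.73 and 7.41 and WT mice 2, 3 and 5 between 8.37 and 8.49.

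At 6h against 0h all 50 factors rose in KO cells, with a median log2 change of 1.73 and a range of 0.87 to 2.47. Over all genes tested, 26.8% were called higher at that time in KO cells and the median log2 change was -0.04. In WT cells 47 of 50 rose, where 20.2% of all genes were called higher, and the median of the factors was 1.31. Without WT mice 1 and 4, all 50 rose in WT cells at 6h with a median of 2.00, beside 28.6% of all genes called higher. With the 0h library of WT mouse 3 left out too, all 50 rose with a median of 2.09, beside 29.6%. A gene is called here when edgeR's quasi-likelihood test, fitted to all 50 libraries and adjusted by Benjamini-Hochberg over all genes tested, gave an adjusted p under 0.05. The 5 KO libraries at 6h lay above the 5 at 0h for all 50 factors, and for 27.4% of all genes tested. In WT cells the 5 libraries at 6h lay above the 5 at 0h for 4 factors, beside 7.76% of all genes, and for 46 without mice 1 and 4, beside 29.4%. Fitted to the 10 WT libraries of 0 and 6h alone, the test called 19 factors higher, where 5.16% of all genes were called higher.

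The rise was held through 24h. At 12h against 0h all 50 factors rose in KO cells (median 1.77; 27.8% of all genes called higher) and 46 rose in WT cells (median 1.34; 19.3% of all genes), or 50 without WT mice 1 and 4 (median 1.90; 28.0% of all genes). At 24h against 0h all 50 rose in KO cells (median 1.49; 30.7% of all genes) and 45 rose in WT cells (median 1.10; 19.9% of all genes), or 48 without WT mice 1 and 4 (median 1.51; 32.5% of all genes). In the 10 WT libraries of each pair of times alone, 27 factors were called higher at 12h and 34 at 24h, beside 5.66% and 8.75% of all genes. None fell in either genotype by any of these fits, where the shares of all genes called lower in the fit to 50 libraries were 22.4%, 25.0% and 28.0% at 6, 12 and 24h in KO cells and 19.7%, 20.2% and 24.2% in WT cells. The 3 comparisons of a genotype share its libraries at 0h, so they are not independent of each other.

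**Figure D2:**
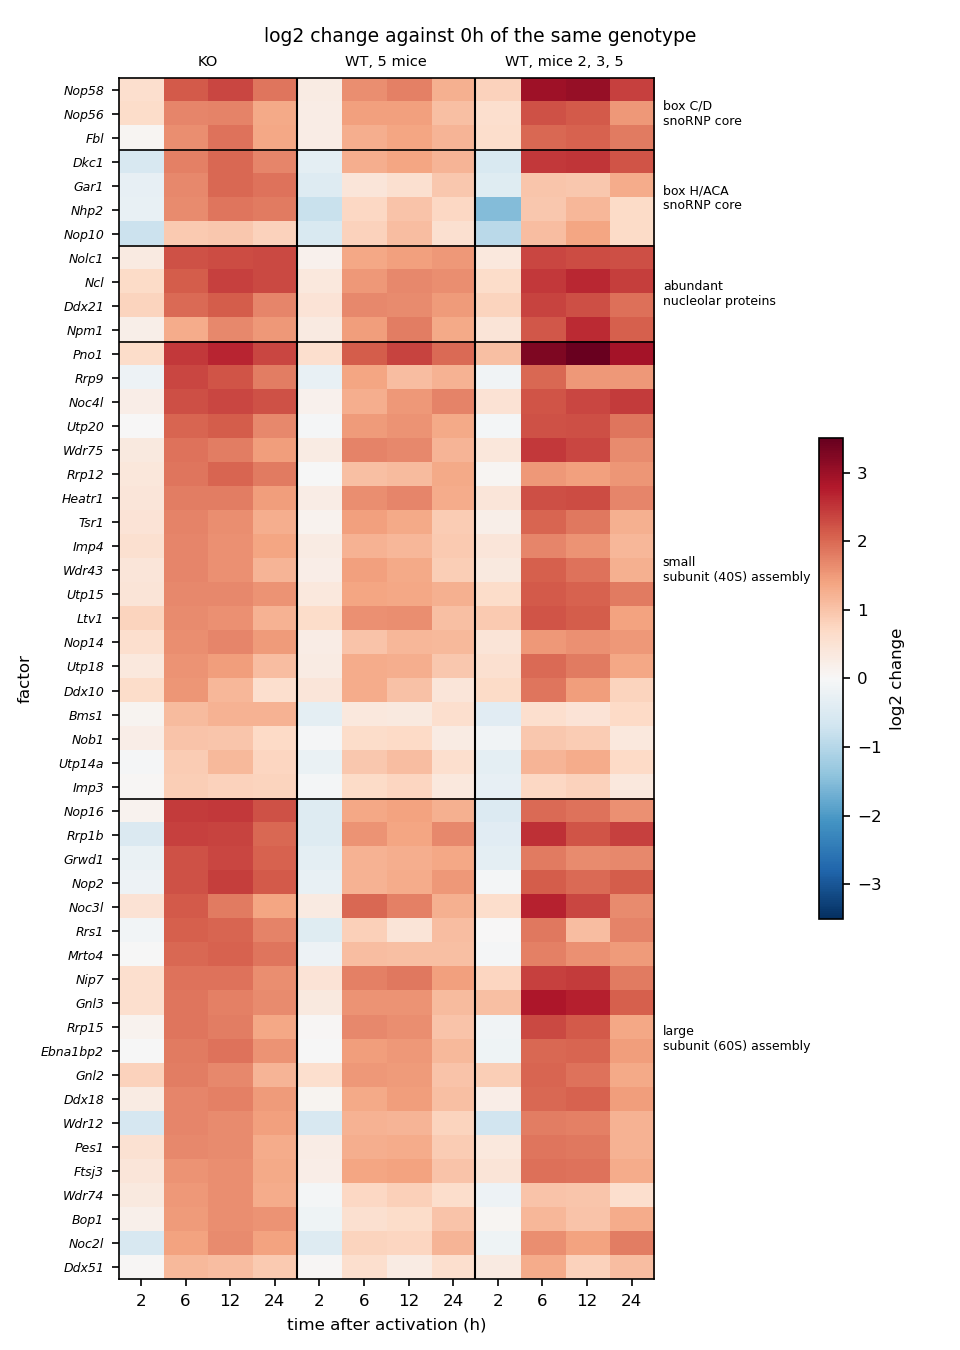
Estimated log2 change against 0h of the same genotype for each of the 50 factors (rows, grouped by role and ordered by the KO change at 6h) at 2, 6, 12 and 24h (columns), in KO cells, in WT cells of 5 mice and in WT cells of mice 2, 3 and 5. The 6, 12 and 24h columns are above 0 for all 50 factors in all 3 blocks, while the 2h columns hold changes in both directions, from -0.75 to 0.81 in KO cells.

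In KO cells 20 factors had their highest group mean at 6h, 29 at 12h and 1, Nolc1, at 24h. In WT cells 16 had it at 6h, 22 at 12h and 12 at 24h, and without mice 1 and 4 these counts were 23, 20 and 7. At 24h against 6h, 3 factors were called lower in KO cells and none higher, where 18.9% of all genes were called lower, and the median log2 change was -0.24. These were the RNA helicase gene Ddx10 with a log2 change of -0.94 (SE 0.188, edgeR adjusted p = 0.000158), Noc3l with -0.78 and Gnl2 with -0.60. In WT cells 4 were called lower, beside 15.5% of all genes: Ddx10 with -0.86 (SE 0.188, edgeR adjusted p = 0.000554), Noc3l with -0.76, Rrp15 with -0.67 and Wdr43 with -0.59. Without WT mice 1 and 4 the counts called lower were 16 in KO cells and 26 in WT cells, beside 26.9% and 22.8% of all genes. From the 10 KO libraries of 6 and 24h alone, 35 were called lower and 3 higher, beside 39.2% and 36.1% of all genes, and from the 10 WT libraries 1 was called lower, beside 15.2%. The KO count was 1 without any 1 of KO mice 1 to 5 and 10 without WT mouse 1, and the WT count was 1 without any 1 of KO mice 1 to 5 or WT mice 2 or 5, 2 without WT mouse 3 and 10 without WT mouse 1. Shares of all genes in the refits without single mice are not given here. Ddx10 had 122, 121, 120, 118 and 121 CPM in KO mice 1 to 5 at 24h, against 208, 246, 233, 246 and 224 CPM at 6h, so its KO groups did not overlap.

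With all mice, the share of factors called at 2h was below that of all genes in both genotypes and both directions. In KO cells 9 were called higher and 2 lower at 2h against 0h, beside 20.3% and 19.6% of all genes, and the median was 0.26. In WT cells 2 were called higher and none lower at 2h, beside 14.0% and 16.2% of all genes, and the median was 0.10. Without WT mice 1 and 4 the counts were 23 higher and 5 lower in KO cells (26.2% and 31.4% of all genes) and 23 higher and 6 lower in WT cells (21.9% and 27.7% of all genes). Gnl2, a nucleolar GTPase of large subunit assembly, had 161, 159, 156, 151 and 174 CPM in KO mice at 2h, against 83.2, 86.7, 107, 88.1 and 91.5 CPM at 0h, a log2 change of 0.81 (SE 0.221, edgeR adjusted p = 0.0029). The groups did not overlap, and in WT cells Gnl2 rose too, by 0.60 (SE 0.220, edgeR adjusted p = 0.0333), or 0.86 (SE 0.0871) without WT mice 1 and 4. Ltv1, which helps release small subunits, rose by 0.77 (SE 0.252) in KO cells and by 0.64 (SE 0.251) in WT cells, or 0.91 (SE 0.145) without those mice. Ddx21 rose in KO cells by 0.78 (SE 0.277) and had a change of 0.48 (SE 0.276) in WT cells that was not called, and was called without them at 0.79 (SE 0.128, edgeR adjusted p = 4.25e-06).

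On the lower side at 2h, Nop10, a small partner of the pseudouridine synthase, had 69.6, 50.1, 55.6, 48.9 and 58.5 CPM in KO mice at 2h, against 82.2, 80.9, 138, 87.3 and 87.2 CPM at 0h. Its 5 KO libraries at 2h lay below all 5 at 0h, and its log2 change was -0.75 (SE 0.286, edgeR adjusted p = 0.0326). Wdr12, part of the Pes1, Bop1 and Wdr12 complex that acts on the large subunit precursor, fell in KO cells by 0.60 on the log2 scale (SE 0.238, edgeR adjusted p = 0.0397), while its partner Pes1 rose by 0.52 (SE 0.211, edgeR adjusted p = 0.0445). The table also counts 8 genes with transcripts near-identical to parts of Wdr12, so reads may be split between it and its copies. Of the 50 factors, 15 in KO cells and 22 in WT cells had their lowest group mean at 2h and the others at 0h. The 2h counts moved with the libraries used: without KO mouse 1, 2, 3, 4 or 5, the KO count fell to 5, 2, 3, 5 and 4 in that order, and without WT mouse 1 it was 22. The WT count was 11 without WT mouse 1 and 0 without any 1 of KO mice 1 to 5 or WT mice 2, 3 or 5. The shares of all genes in these refits without single mice are not given here, so the counts cannot be set against them. With library totals in place of edgeR's TMM factors, which shifted the median change of all genes by -0.17, 3 factors were called higher and 3 lower in KO cells at 2h, beside 15.1% and 24.7% of all genes.

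The box C/D snoRNP core carries the guide RNAs for methylation of rRNA: Nop56 and Nop58 form its paired scaffold, and Fbl, fibrillarin, is the methyltransferase. Nop58 had 649, 790, 832, 769 and 748 CPM in KO mice 1 to 5 at 6h, against 148, 148, 147, 176 and 231 CPM at 0h. In WT mice 1 to 5 it had 384, 862, 926, 486 and 1120 CPM at 6h, against 456, 122, 105, 383 and 143 CPM at 0h. All KO libraries and WT mice 2, 3 and 5 were far higher at 6h than at 0h, whereas WT mouse 1 was lower at 6h and WT mouse 4 was higher by a smaller amount. The log2 change at 6h was 2.16 (SE 0.319) in KO cells and 1.64 (SE 0.313) in WT cells, or 2.97 (SE 0.152) without WT mice 1 and 4. Nop56 had 598, 650, 726, 651 and 642 CPM in KO mice at 6h, against 176, 200, 193, 195 and 224 CPM at 0h. In WT mice Nop56 had 205, 725, 785, 367 and 880 CPM at 6h, against 308, 166, 154, 279 and 189 CPM at 0h, a log2 change of 1.43, or 2.22 without mice 1 and 4. It was already higher at 2h in KO cells, by 0.65 (SE 0.259, edgeR adjusted p = 0.0409), and the KO groups did not overlap. Fbl was the least abundant of the core per kilobase and had 58.2, 73.1, 60.2, 66.7 and 51.0 CPM in KO mice at 6h, against 15.8, 20.0, 22.0, 21 and 21.1 CPM at 0h. At 2h the change of Fbl was 0.06 (SE 0.251) in KO cells, against 0.65 for Nop56.

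The box H/ACA snoRNP core converts uridine to pseudouridine: Dkc1, dyskerin, is the synthase, and Gar1, Nhp2 and Nop10 are its partners. This core was the role with the lowest medians at 2h, -0.42 in KO cells and -0.49 in WT cells. Dkc1 had 78.3, 74.1, 89.6, 87.4 and 102 CPM in KO mice at 2h, against 115, 115, 107, 132 and 169 CPM at 0h. The KO groups did not overlap, but the change of -0.56 (SE 0.344) was not called (edgeR adjusted p = 0.196), and without WT mice 1 and 4 it was called at -0.59 (SE 0.154, edgeR adjusted p = 0.0013). At 6h Dkc1 had 375, 450, 485, 444 and 421 CPM in KO mice, a log2 change of 1.77 (SE 0.353) against 0h. In WT mice Dkc1 had 195, 444, 493, 279 and 552 CPM at 6h, against 292, 105, 43.3, 247 and 118 CPM at 0h, a log2 change of 1.28 (SE 0.348), or 2.47 (SE 0.208) without mice 1 and 4. Nhp2 had 244, 282, 315, 286 and 289 CPM in KO mice at 6h, against 72.9, 73.0, 127, 86.3 and 90.7 CPM at 0h, a log2 change of 1.66 (SE 0.386). In WT mice Nhp2 had 121, 351, 353, 172 and 396 CPM at 6h, against 140, 48.8, 460, 126 and 64.0 CPM at 0h, and the change of 0.73 (SE 0.378) was not called. It was called without mice 1 and 4 at 0.94 (SE 0.399, edgeR adjusted p = 0.0428), and at 2.66 (SE 0.206, edgeR adjusted p = 1.98e-13) with the 0h library of mouse 3 left out too. WT mouse 3 at 0h, with 460 CPM, was far above every other library at 0h. The same library had the lowest Dkc1 level of all 50 libraries, 43.3 CPM.

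**Figure D3:**
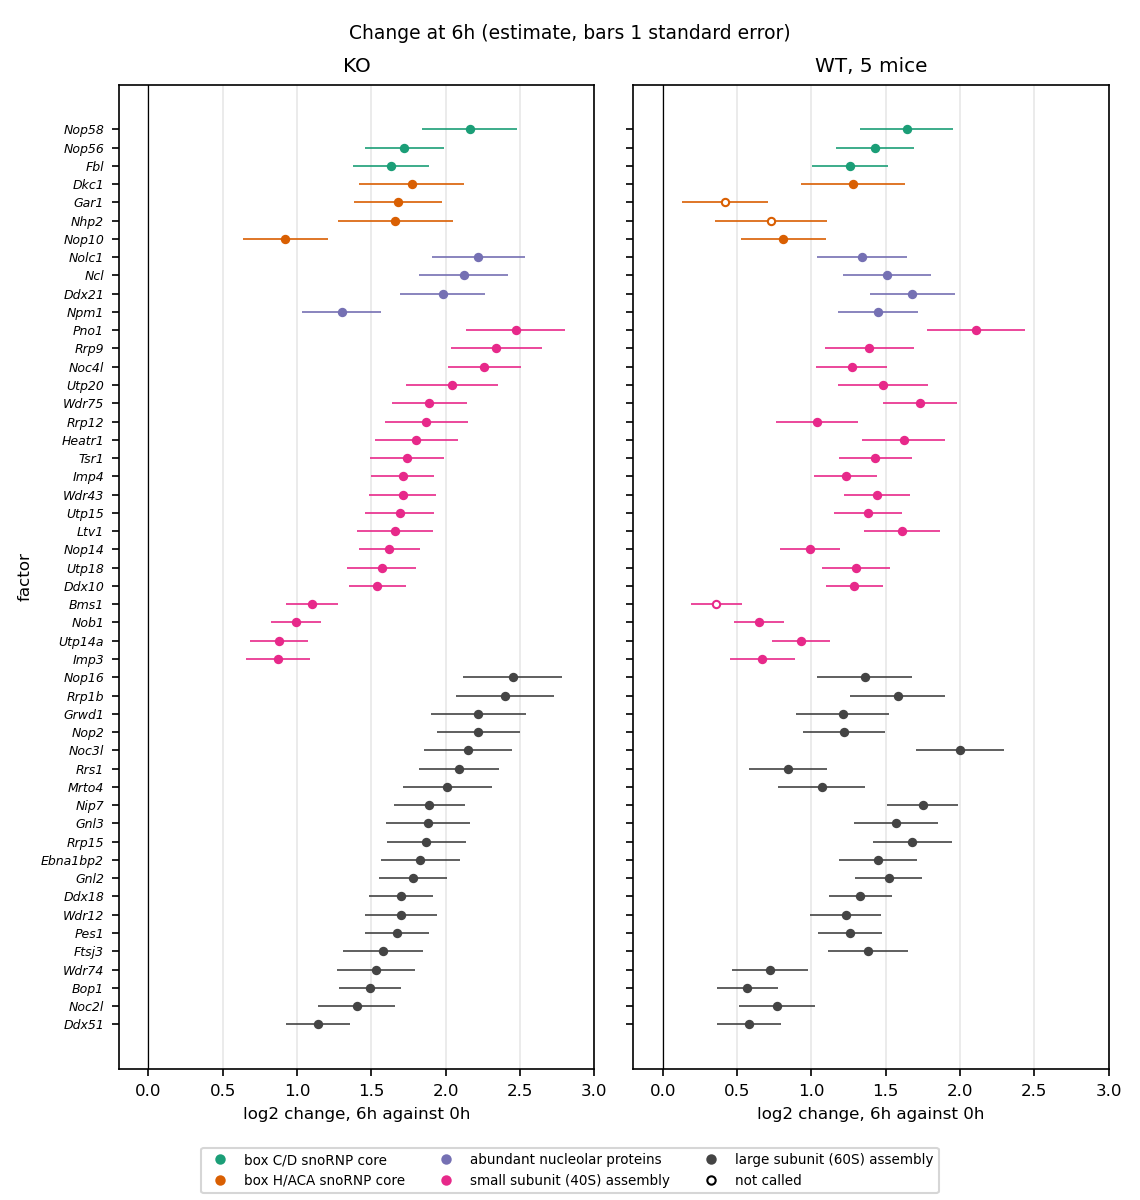
Estimated log2 change at 6h against 0h (horizontal axis) for each of the 50 factors (vertical axis, coloured by role), in KO cells on the left and in WT cells of 5 mice on the right, with bars of 1 standard error and open points where the change was not called. All 50 KO points are called and lie between 0.87 and 2.47, and the 3 open WT points are Gar1, Nhp2 and Bms1.

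The abundant nucleolar proteins had the largest median change at 12 and 24h. Ncl, nucleolin, binds precursor rRNA and had 5860, 5420, 5590, 5170 and 5440 CPM in KO mice at 12h, against 847, 881, 1240, 1010 and 1240 CPM at 0h. In WT mice Ncl had 1820, 6500, 5720, 3150 and 6610 CPM at 12h, against 2330, 716, 1430, 2080 and 797 CPM at 0h. Its log2 change at 12h was 2.4 (SE 0.305) in KO cells and 1.69 (SE 0.298) in WT cells, or 2.63 (SE 0.178) without WT mice 1 and 4. Npm1, nucleophosmin, is a chaperone of the nucleolus and had 1820, 1710, 1820, 1660 and 1620 CPM in KO mice at 12h, against 490, 467, 724, 470 and 553 CPM at 0h. In WT mice Npm1 had 732, 2540, 2070, 1270 and 2730 CPM at 12h, against 820, 312, 455, 719 and 387 CPM at 0h. Npm1 rose by 1.68 (SE 0.270) in KO cells and by 1.8 (SE 0.271) in WT cells at 12h, or 2.62 (SE 0.182) without WT mice 1 and 4. The table also counts 1 gene with a transcript near-identical to Npm1, and how the authors counted reads that map to both is not given in the sources used here. Ddx21, an RNA helicase, and Nolc1, which binds snoRNPs, rose by 2.11 (SE 0.287) and 2.29 (SE 0.311) in KO cells at 12h. Per kilobase of exon, Npm1 had the highest level of the 50 factors in KO cells at 12h (648 CPM per kilobase), followed by Ncl (540), Ddx21 (337) and Nhp2 (289), and Wdr12 had the lowest (15.3). The length used joins all annotated exons of a gene, 2665 bases for Npm1, 10188 for Ncl and 11955 for Wdr12. This order depends on those lengths, and in CPM Ncl was above Npm1 in every KO mouse at 12h.

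At 6h small subunit assembly held both the largest and the smallest change of the 50 factors in KO cells. Pno1, which binds the late small subunit precursor beside the endonuclease Nob1, had 188, 215, 234, 222 and 204 CPM in KO mice at 6h, against 34.4, 35.5, 33, 43.0 and 46.3 CPM at 0h. In WT mice Pno1 had 60.5, 221, 247, 104 and 255 CPM at 6h, against 71.1, 26.3, 17.1, 60.3 and 31.0 CPM at 0h. Pno1 was the most changed of the 50 factors in both genotypes at 6, 12 and 24h. Its log2 change at 6h was 2.47 (SE 0.333, edgeR adjusted p = 9.99e-08) in KO cells and 2.11 (SE 0.329, edgeR adjusted p = 2.29e-06) in WT cells, or 3.26 (SE 0.147) without WT mice 1 and 4. Nob1, its partner, was among the least changed, with 0.99 (SE 0.168) in KO cells and 0.65 (SE 0.168) in WT cells at 6h, or 0.94 (SE 0.159) without those mice. Imp3, Utp14a and Bms1, factors of early small subunit processing, rose by 0.87 (SE 0.217), 0.88 (SE 0.195) and 1.10 (SE 0.172) in KO cells at 6h. In WT cells Bms1 had a change of 0.36 (SE 0.170) that was not called (edgeR adjusted p = 0.0936) and was called without mice 1 and 4 at 0.59 (SE 0.133).

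Wdr43 and Heatr1 belong to the subcomplex that joins the precursor rRNA as it is transcribed. Wdr43 had 554, 660, 709, 671 and 600 CPM in KO mice at 6h, against 173, 182, 191, 206 and 226 CPM at 0h. In WT mice Wdr43 had 282, 727, 760, 405 and 883 CPM at 6h, against 305, 163, 211, 269 and 181 CPM at 0h. Its log2 change was 1.71 (SE 0.224) in KO cells and 1.44 (SE 0.222) in WT cells at 6h, or 2.09 (SE 0.110) without WT mice 1 and 4. Heatr1 had 549, 646, 675, 656 and 601 CPM in KO mice at 6h, against 169, 181, 129, 198 and 220 CPM at 0h. In WT mice Heatr1 had 168, 693, 736, 339 and 786 CPM at 6h, against 219, 177, 93.5, 207 and 189 CPM at 0h. It rose by 1.8 (SE 0.279) in KO cells and by 1.62 (SE 0.278) in WT cells at 6h, or 2.26 (SE 0.180) without those mice, and in WT mouse 1 its 6h library was below its 0h library.

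Large subunit assembly rose in every member at 6h in both genotypes, with medians of 1.85 in KO cells and 1.3 in WT cells. Nop16 and Rrp1b had the largest KO changes, 2.45 (SE 0.332) and 2.4 (SE 0.329). Nop16 had 189, 207, 205, 216 and 201 CPM in KO mice at 6h, against 27.9, 33.5, 34.6, 42.6 and 48.3 CPM at 0h. Nop2, an rRNA methyltransferase, rose by 2.22 (SE 0.282) in KO cells and by 1.22 (SE 0.274) in WT cells at 6h, or 2.11 (SE 0.168) without WT mice 1 and 4. Ftsj3, also an rRNA methyltransferase, had 528, 609, 632, 599 and 555 CPM in KO mice at 6h, against 158, 176, 206, 203 and 235 CPM at 0h. In WT mice Ftsj3 had 178, 705, 738, 324 and 807 CPM at 6h, against 238, 156, 253, 231 and 177 CPM at 0h. Its log2 change at 6h was 1.58 (SE 0.268) in KO cells and 1.38 (SE 0.267) in WT cells, or 1.93 (SE 0.136) without those mice. Noc2l, which travels with early large subunit precursors, had 486, 560, 550, 501 and 390 CPM in KO mice at 6h, against 163, 181, 219, 174 and 206 CPM at 0h, a log2 change of 1.4 (SE 0.260). In WT mice Noc2l had 112, 438, 482, 224 and 402 CPM at 6h, against 291, 173, 72.9, 263 and 175 CPM at 0h, a log2 change of 0.77 (SE 0.256), or 1.64 (SE 0.186) without mice 1 and 4 and 1.3 (SE 0.135) with the 0h library of mouse 3 left out too. Noc2l shares 598 exon bases with the antisense gene Samd11, and the strand setting of the counting is not given in the sources used here.

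**Figure D4:**
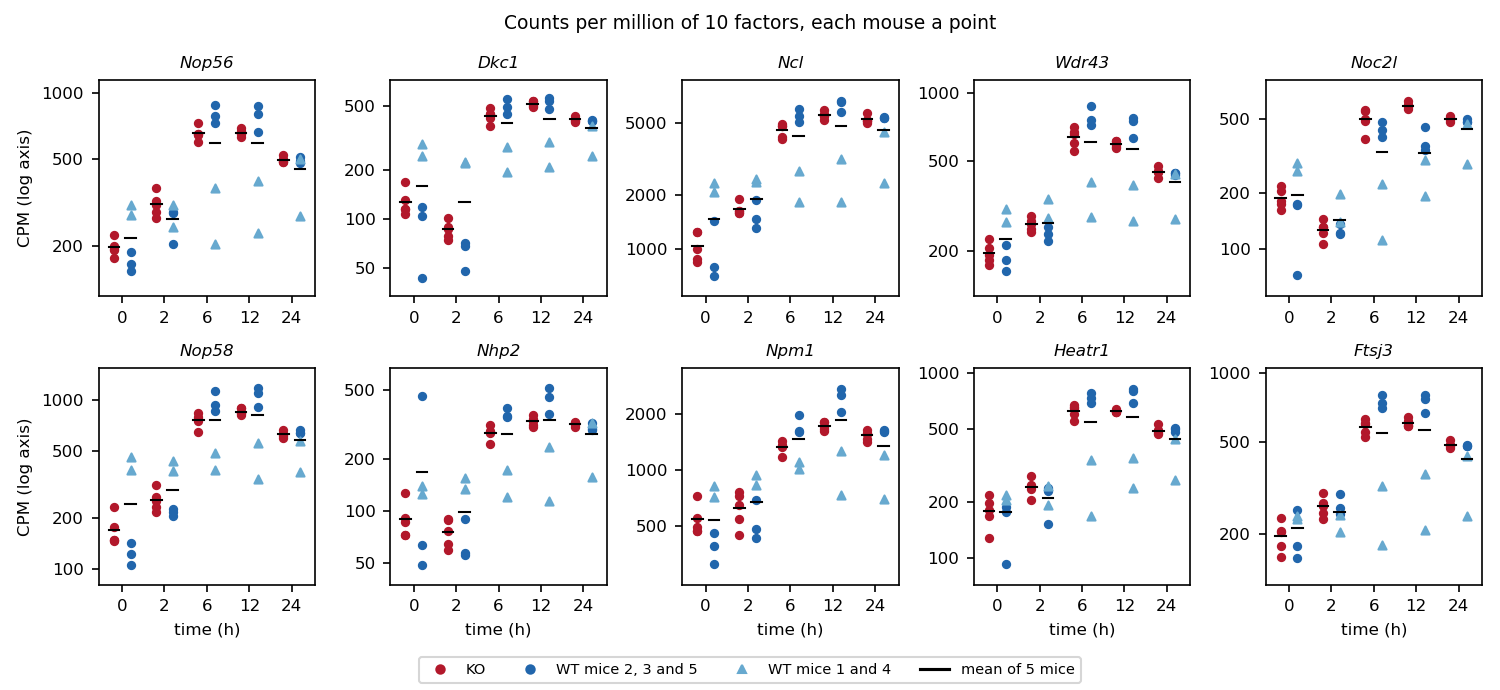
CPM (vertical axis, log scale, a range of its own in each panel) of the 2 factors with the highest mean CPM in each role, by time in hours (horizontal axis, times evenly spaced), with each mouse a point, KO left of WT at each time, and black bars at the mean of 5 mice. WT mice 1 and 4 (triangles) lie below the other WT mice at 6 and 12h in all 10 panels, for instance at 205 and 367 CPM for Nop56 at 6h, where WT mice 2, 3 and 5 had 725 to 880 CPM.

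Few factors were called different between KO and WT cells at the same time. None was called at 0, 2, 6 or 24h, where 7.93%, 11.8%, 10.1% and 0.0451% of all genes were called. At an unadjusted p under 0.05 edgeR had 10, 2, 5 and 0 factors at these times. The shares of all genes at that unadjusted cut are not given here, so these counts cannot be set against them. DESeq2 called 0, 0, 1 and 0 factors after adjustment, beside 11.1%, 16.1%, 15.8% and 1.26% of all genes called by DESeq2. By edgeR 2 were called higher in KO cells at 12h, where 5.54% of all genes were called higher and 7.55% lower. The median log2 difference, KO minus WT, was -0.25, -0.12, 0.19, 0.19 and 0.15 in time order, beside -0.15, -0.07, -0.04, -0.1 and 0 over all genes. With WT mice 2, 3 and 5 alone these medians of the factors were 0.05, 0.03, -0.21, -0.13 and 0.01. So the direction at 6 and 12h depended on whether WT mice 1 and 4 were included. The counts without WT mice 1 and 4 were 7 higher and 3 lower in KO cells at 0h, none at 2h, 4 lower at 6h, 6 higher and 7 lower at 12h and none at 24h. The shares of all genes called were then 22.4%, 4.1%, 4.16%, 23.0% and 0.0453%. With the 0h library of WT mouse 3 left out too, 8 were higher at 0h (7.17% of all genes), 1 was higher at 2h, 12 were lower at 6h (5.97%), 8 were higher and 18 lower at 12h (17.6% and 19.6%) and none was called at 24h. That library enters the 6 and 12h comparisons only through the shared estimate of the spread, the scaling and the filter. At 24h all 50 differences lay between -0.02 and 0.28, or between -0.11 and 0.10 without WT mice 1 and 4. Single mice moved these counts too. The shares of all genes in those refits, and for the 1 factor called at 2h, are not given here, so these counts cannot be set against them. At 0h 6 factors were called lower without WT mouse 2 or without WT mouse 5, and 1 without WT mouse 1. At 2h 1 was called without WT mouse 2. At 6h 7 were called higher without WT mouse 3 and 1 without WT mouse 2.

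The 2 factors called at 12h were Rrs1, which helps bring a small ribosomal RNA into the large subunit, and Noc2l. Rrs1 had 172, 161, 175, 176 and 176 CPM in KO mice at 12h, against 57.9, 77.4, 112, 83.9 and 72.5 CPM in WT mice. The groups did not overlap, and KO was higher by 1.09 on the log2 scale (SE 0.263, edgeR adjusted p = 0.00732), or 1.02 (SE 0.178, edgeR adjusted p = 0.000122) without WT mice 1 and 4. Noc2l had 577, 592, 595, 622 and 565 CPM in KO mice at 12h, against 193, 359, 450, 300 and 342 CPM in WT mice. Again the groups did not overlap, and the log2 difference was 0.84 (SE 0.257, edgeR adjusted p = 0.0266), or 0.66 (SE 0.165, edgeR adjusted p = 0.00418) without WT mice 1 and 4. The call of Noc2l was lost without any 1 of KO mice 1 to 5 (edgeR adjusted p = 0.0679, 0.0664, 0.0661, 0.0797 and 0.0705) or WT mouse 4 (0.0561), which left Rrs1 alone. Without WT mouse 3, 11 factors were called, and the share of all genes in that refit is not given here. With the mouse as a random block in limma-voom the difference of Noc2l was 0.90 and was not called (limma adjusted p = 0.0572). At 24h Rrs1 had 139, 140, 142, 136 and 133 CPM in KO mice, against 95.5, 142, 135, 133 and 122 CPM in WT mice, and the groups overlapped. Across the 50 factors at 12h, 12 had all KO libraries above all WT libraries and none had them below, beside 13.0% and 11.4% of all genes tested. With WT mice 2, 3 and 5 alone these counts were 12 above and 18 below, beside 21.6% and 25.2% of all genes.

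Once WT mice 1 and 4 were left out, the factors lower in KO cells at 12h were Nop10, Npm1, Gnl3, Rrp15, Wdr75, Nip7 and Ddx18. Gnl3, nucleostemin, had the smallest adjusted p of them, with a KO minus WT value of -0.46 (SE 0.113, edgeR adjusted p = 0.00342). The 6 higher ones were Rrs1, Noc2l, Rrp9, Rrp1b, Nop2 and Bop1, with differences from 0.36 to 1.02. Rrp9 binds the snoRNA that guides the early cuts of the small subunit precursor, and its difference was 0.49 (SE 0.145, edgeR adjusted p = 0.0126) without those mice and 0.82 (SE 0.294, edgeR adjusted p = 0.0566) with them. At 6h Gnl3, Wdr75, Ddx18 and Wdr43 were lower in KO cells without WT mice 1 and 4, by -0.48, -0.42, -0.35 and -0.33. These factors had differences of -0.06, 0.01, 0.02 and 0.06 with all WT mice and were not called.

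**Figure D5:**
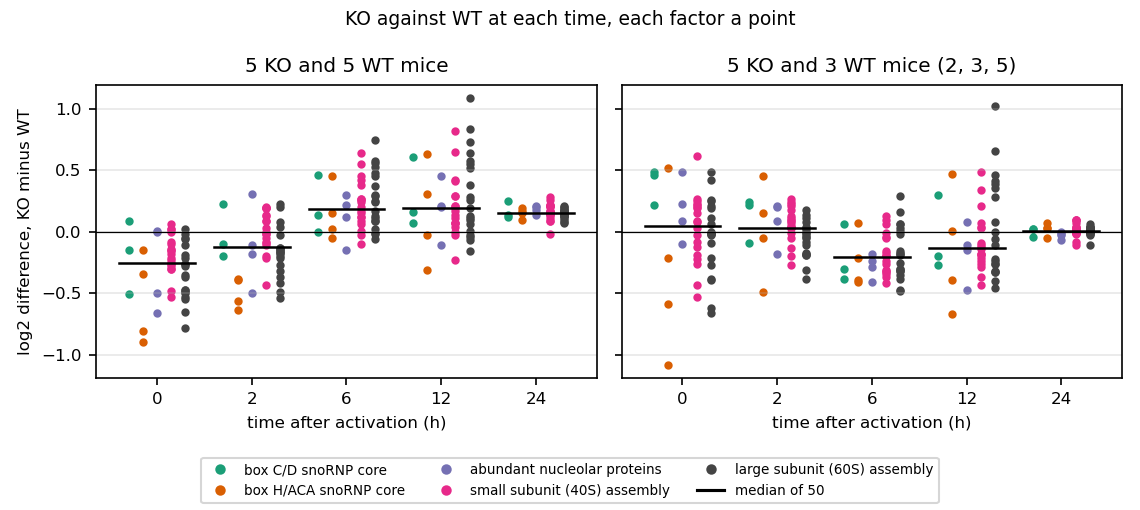
Log2 difference of KO minus WT (vertical axis) for each of the 50 factors (points, coloured by role) by time after activation in hours (horizontal axis, times evenly spaced), with 5 WT mice on the left and WT mice 2, 3 and 5 on the right, and black lines at the median of the 50. The median at 6h is 0.19 with 5 WT mice and -0.21 with 3, and at 24h the points lie within -0.02 to 0.28 and -0.11 to 0.10.

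The change from 0h was compared between genotypes by the difference of the KO and WT changes. No factor was called at 2, 6 or 24h, beside 0.015%, 2.47% and 0.0752% of all genes. At an unadjusted p under 0.05 edgeR had 0, 14 and 5 factors at these times. Shares of all genes at this unadjusted cut are not given here, so the counts cannot be set against them. DESeq2 called 0, 1 and 0 factors after adjustment, beside 0.211%, 4.77% and 0.865% of all genes called by DESeq2. By edgeR 4 had a larger rise in KO than in WT cells at 12h, where 7.5% of all genes were called, 5.54% with a larger and 1.96% with a smaller change in KO cells. These were Rrs1 with a difference of 1.60 (SE 0.370, edgeR adjusted p = 0.00501), Gar1 with 1.44 (SE 0.411, edgeR adjusted p = 0.0225), Bop1 with 1.00 (edgeR adjusted p = 0.0267) and Bms1 with 0.90 (edgeR adjusted p = 0.0145). Gar1 had 190, 190, 199, 196 and 174 CPM in KO mice at 12h, against 72.1, 135, 159, 117 and 129 CPM in WT mice. At 0h it had 34.6, 39.0, 64.4, 48.3 and 49.2 CPM in KO mice, against 104, 34.9, 143, 93.9 and 36.8 CPM in WT mice, of which mice 1, 3 and 4 were above every KO mouse. The median difference of the 50 factors at 12h was 0.45, beside 0.04 over all genes, and it was -0.16 without WT mice 1 and 4. Once those mice were left out, 5 factors had a larger and 9 a smaller rise in KO cells at 12h, beside 13.3% and 7.26% of all genes, and 11 had a smaller rise at 6h, beside 3.74%. Rrs1, Bop1 and Bms1 were among the 5, with differences of 0.95, 0.63 and 0.74, and Npm1 and Gnl3 had the lowest values of the 9, -0.96 and -0.95. With the 0h library of WT mouse 3 left out too, 5 had a larger and 19 a smaller rise in KO cells at 12h, beside 15.6% and 13.6% of all genes, and 19 had a smaller rise at 6h, beside 6.69%. The values at 12h were then 0.85 for Rrs1, 0.40 for Bop1, 0.39 for Bms1 and 0.07 for Gar1, of which Gar1 was not called, and -1.11 for Npm1 and -0.86 for Gnl3. With the mouse as a block within each genotype, 7 factors were called at 12h and 3 at 6h, beside 12.3% and 5.07% of all genes. Leaving out a mouse gave 1 to 8 called at 12h, with 1 without KO mouse 1, 2 without any 1 of KO mice 2 to 5 or WT mouse 4, 7 without WT mouse 2 and 8 without WT mouse 3. At 6h it gave 5 without WT mouse 2, 7 without WT mouse 3 and 4 without WT mouse 5. For these refits the shares of all genes are not given here.

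Other genes of the same pathway, taken from lists that were set with earlier results of these data known, are given beside the 50. Of 75 further ribosome assembly factors tested, 72 rose and none fell in KO cells at 6h with a median of 1.46, and 64 rose and none fell in WT cells with a median of 0.89. Among all genes tested 26.8% rose and 22.4% fell in KO cells at 6h, and 20.2% rose and 19.7% fell in WT cells. When WT mice 1 and 4 were left out, 72 of the 75 rose and 1 fell in KO cells (31.7% and 33.0% of all genes), and 68 rose and none fell in WT cells with a median of 1.52 (28.6% and 31.2% of all genes). The median over all genes was -0.04 in KO cells and -0.05 in WT cells. At 12h against WT, 12 of the 75 were higher and 1 lower in KO cells, beside 5.54% and 7.55% of all genes, with a median of 0.14. Of the 75, 17 were higher and 16 lower without WT mice 1 and 4, beside 13.9% and 9.03% of all genes, and the median was -0.13, so the balance of the list depended on those mice. The 12 included Tcof1, a nucleolar protein that supports rRNA transcription, with 468 ± 39.3 CPM in KO mice and 212 ± 53.3 CPM in WT mice (SD, n = 5 each) and was higher in KO by 1.14 on the log2 scale (SE 0.273, edgeR adjusted p = 0.00719), or 1.21 without WT mice 1 and 4. Riok1, a kinase of late small subunit maturation, was higher at 2h than at 0h or 6h. It had 200 ± 18.7 CPM in KO mice at 2h, against 56.4 ± 8.21 CPM at 0h, and 88.4 ± 6.89 CPM at 6h (SD, n = 5). Of 13 RNA exosome genes, which trim precursor rRNA, 10 rose in KO cells and 10 in WT cells at 6h and none fell, with medians of 0.88 and 0.69. These counts were 11 and 11 without WT mice 1 and 4, with medians of 0.85 and 1.04. The shares of all genes at 6h are those given for the 75.

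Of 16 genes of RNA polymerase I and its factors, 12 rose and none fell in KO cells at 6h (median 1.01), and 11 rose and 1 fell in WT cells (median 0.66). With WT mice 2, 3 and 5 alone, 12 rose and none fell in KO cells (median 0.98), and 12 rose and 1 fell in WT cells (median 1.02). In the same fits 26.8% of all genes rose and 22.4% fell in KO cells and 20.2% rose and 19.7% fell in WT cells with all mice, against 31.7% and 33.0% in KO cells and 28.6% and 31.2% in WT cells without WT mice 1 and 4. Ubtf, which opens the rRNA genes for RNA polymerase I, was lower at 2h. It had 112 ± 9.22 CPM in KO mice at 2h, against 279 ± 23.0 CPM at 0h, a log2 change of -1.32 (SE 0.176, edgeR adjusted p = 8.25e-08). In WT mice Ubtf had 170 ± 83.4 CPM at 2h, against 391 ± 115 CPM at 0h (SD, n = 5), a log2 change of -1.20 (SE 0.175, edgeR adjusted p = 1.12e-06), or -1.80 without WT mice 1 and 4. The list of Myc and its partners, 10 genes, had 2 higher and 4 lower in KO cells at 6h and 2 higher and 2 lower in WT cells, where 26.8% and 22.4% of all genes in KO cells and 20.2% and 19.7% in WT cells were called. The counts without WT mice 1 and 4 were 4 higher and 4 lower in KO cells and 1 higher and 5 lower in WT cells. Myc itself had 1550 ± 260 CPM in KO mice at 6h, against 156 ± 24.2 CPM at 0h, a log2 change of 3.32 (SE 0.414, edgeR adjusted p = 2.08e-08). In WT mice Myc had 848 ± 526 CPM at 6h, against 216 ± 139 CPM at 0h, a log2 change of 1.98 (SE 0.392, edgeR adjusted p = 8.57e-05), or 3.33 without mice 1 and 4. At 12h Myc had 1230 ± 29.7 CPM in KO mice and 564 ± 219 CPM in WT mice, higher in KO by 1.12 on the log2 scale (SE 0.383, edgeR adjusted p = 0.0458), or 0.89 without WT mice 1 and 4.

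The 50 factor genes lie on 17 chromosomes, and some carry guide RNAs within them. In the GENCODE annotation of GRCm38, 7 of the 50 (14%) hold at least 1 snoRNA gene inside the gene body on the same strand, 21 snoRNA genes in all, against 262 of 20985 protein-coding genes in the table (1.25%). They are Nop56 (5 snoRNA genes), Nop58 (4), Ncl, Gnl3 and Wdr43 (3 each), Tsr1 (2) and Dkc1 (1). In 19 of the 50, exon bases are shared with a gene on the opposite strand.

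Promoters were looked at because the factors rose together. RefSeq windows of 250 bases before to 50 bases after the gene start (GRCm38.p6) were found for 44 of the 50. The letters CACGTG, the E-box that Myc and related proteins bind, were present on either strand in 10 of 44 (22.7%), against 9.31% of protein-coding genes in the same windows. The letters CGGAAG, the core read by Ets family proteins, were present on either strand in 27 of 44 (61.4%), against 24.6%. TATAAA was present on either strand in 2 of 44 (4.55%), against 14.2%. CACGTG and CGGAAG cannot share bases on either strand because of their letters, so no overlap between their matches was possible. CACGTG lay after the gene start in 7 of 44 (15.9%), against 224 of 16152 protein-coding genes (1.39%), and it began 2 to 37 bases after the first base of the gene. The protein-coding genes compared include genes that did not pass the filter on low counts, whereas all 50 factors passed it, so the shares do not compare like with like. A match is a run of letters and says nothing of whether a protein binds there.

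The 7 windows of 30 bases that hold CACGTG after the gene start are shown because those letters are much rarer there in other genes. They are read 5′ to 3′ along the gene from RefSeq (GRCm38.p6), with CACGTG in capitals. The Pes1 window lies at chr11:3963965-3963994 on the plus strand. The Wdr43 window lies at chr17:71616220-71616249 on the plus strand. The Tsr1 window lies at chr11:74898092-74898121 on the plus strand. The Ltv1 window lies at chr10:13193092-13193121 on the minus strand. The Grwd1 window lies at chr7:45830740-45830769 on the minus strand. The Pno1 window lies at chr11:17211540-17211569 on the minus strand. The Utp20 window lies at chr10:88826765-88826794 on the minus strand.
Pes1: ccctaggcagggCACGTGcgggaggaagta
Wdr43: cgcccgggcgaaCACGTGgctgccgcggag
Tsr1: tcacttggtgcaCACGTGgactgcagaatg
Ltv1: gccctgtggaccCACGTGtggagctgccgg
Grwd1: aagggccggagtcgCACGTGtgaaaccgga
Pno1: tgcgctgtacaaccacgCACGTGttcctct
Utp20: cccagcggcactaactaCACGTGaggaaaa

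The full windows follow for the factor with the highest mean CPM in each role among those with a RefSeq window, so that the letters around the start can be read beside the levels above. Matches to CACGTG and CGGAAG are in capitals, and among these 5 windows CACGTG occurs in that of Wdr43 and CGGAAG in none. TATAAA is not marked, and the Dkc1 window holds it on the other strand, as the letters tttata. The Nop58 promoter lies at chr1:59684756-59685055 on the plus strand. The Dkc1 promoter lies at chrX:75095604-75095903 on the plus strand. The Ncl promoter lies at chr1:86359406-86359705 on the minus strand. The Wdr43 promoter lies at chr17:71615965-71616264 on the plus strand. The Ftsj3 promoter lies at chr11:106256035-106256334 on the minus strand. The build is GRCm38.p6.
Nop58: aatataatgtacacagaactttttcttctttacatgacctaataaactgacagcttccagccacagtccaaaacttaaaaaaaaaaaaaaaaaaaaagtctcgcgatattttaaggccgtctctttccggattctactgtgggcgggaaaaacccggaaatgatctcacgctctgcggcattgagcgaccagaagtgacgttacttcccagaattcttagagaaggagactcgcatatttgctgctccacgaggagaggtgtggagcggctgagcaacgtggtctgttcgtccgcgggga
Dkc1: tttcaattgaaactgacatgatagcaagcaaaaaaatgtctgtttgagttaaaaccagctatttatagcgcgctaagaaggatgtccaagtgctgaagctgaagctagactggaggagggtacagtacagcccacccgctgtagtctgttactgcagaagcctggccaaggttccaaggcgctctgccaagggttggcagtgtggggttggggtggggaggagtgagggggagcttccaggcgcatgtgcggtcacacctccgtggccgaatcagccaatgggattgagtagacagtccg
Ncl: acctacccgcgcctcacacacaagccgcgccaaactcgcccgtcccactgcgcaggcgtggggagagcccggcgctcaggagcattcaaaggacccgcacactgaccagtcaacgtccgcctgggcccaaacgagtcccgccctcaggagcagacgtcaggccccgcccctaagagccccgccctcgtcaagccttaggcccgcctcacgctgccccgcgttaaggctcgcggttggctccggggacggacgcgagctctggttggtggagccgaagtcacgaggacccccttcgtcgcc
Wdr43: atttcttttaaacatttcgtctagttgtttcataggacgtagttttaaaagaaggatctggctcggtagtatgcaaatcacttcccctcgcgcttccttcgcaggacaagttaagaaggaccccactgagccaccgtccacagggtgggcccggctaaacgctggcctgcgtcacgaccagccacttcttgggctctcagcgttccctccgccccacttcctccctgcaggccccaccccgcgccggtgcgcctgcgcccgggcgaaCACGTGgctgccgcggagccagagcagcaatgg
Ftsj3: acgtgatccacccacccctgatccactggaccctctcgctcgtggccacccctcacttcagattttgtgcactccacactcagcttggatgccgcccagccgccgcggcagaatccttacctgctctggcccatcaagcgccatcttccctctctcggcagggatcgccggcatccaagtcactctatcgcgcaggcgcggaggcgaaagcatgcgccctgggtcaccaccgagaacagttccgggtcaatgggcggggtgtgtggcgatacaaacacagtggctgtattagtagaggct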

How the data were processed

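Raw counts per Ensembl gene were deposited by the authors in 1 table of 21647 genes and 50 libraries. Per the labels' protocols, libraries were stranded poly(A) libraries read as 50-nt single ends. Per the submitters' processing notes, CASAVA 1.8.2, STAR 2.4, featureCounts 1.4.6 and GRCm38 were used. The annotation release, the strand setting and the treatment of reads that map to several places are not given in the sources used here. Group labels came from the sample titles. Whether the counts fit the genotype labels is not reported here.

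Genes were kept by edgeR's filterByExpr (minimum count 10, minimum total 15), which left 13294 and removed 8353. Library sizes were scaled by TMM, and edgeR 4.0.16 (R 4.3.3) fitted a robust quasi-likelihood model to all 50 libraries with 10 group means and 40 residual degrees of freedom, so all groups share an estimate of the spread. The p-values of each of 19 contrasts were adjusted by Benjamini-Hochberg over all genes tested. A standard error is the log2 change divided by the square root of the test's F value. CPM values are TMM-scaled, and log2 CPM used a prior count of 2. Levels per kilobase divide CPM by the gene's exon length in GENCODE M21. DESeq2 1.42.0, limma 3.58.1 and refits without single mice served as alternatives, 19 settings in all, of which 2 were chosen after seeing the data. Tested on counts simulated for KO 6h against 0h, the model recovered 6 of 50 genes changed 1.5-fold, 38 of 50 changed 2-fold, 50 of 50 changed 3-fold and 48 of 50 changed 4-fold, and called 9 unchanged genes. A mouse number marks the same animal over time within a genotype, and deviations from the group means correlated at 0.212 to 0.356 on average within KO mice and 0.415 to 0.638 within WT mice. No 2 libraries were identical. Precision is set by 5 mice a group and library totals of 9571625 to 31293872 counts. The 50 members, their roles and the other gene lists were chosen with earlier results of these data known. Values in every library are given for the 2 members of each role with the highest mean CPM over all libraries, and other members were named for their size of change, their calls or their role, after their values were seen. Near-identical copies were sought with BLAST+ 2.17.0, at 97% identity over at least 100 bases. Tables and figures used Python 3.11.15, pandas 2.3.3 and matplotlib 3.10.9.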

Additional observations from a re-analysis of the deposited data

Results flagged for a closer look

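Among 110 groups of 5 libraries examined for a library far from the others, 14 held one, where chance gives about 1 in 20 groups, or 5.5. The 110 are the same 10 groups of libraries, read for the mean of the 50 factors and for single factors. They are not independent, so 14 cannot be weighed against 5.5 as separate draws. The criterion for the 14 was a gap to the nearest library above 0.71 of the group's whole range, on log2 CPM. Most were WT mouse 1 at 24h, which lay below the other WT mice for the mean of the 50 factors (7.19, others 7.94 to 8.06), Nop56 (8.10), Nop58 (8.54), Dkc1 (7.94), Nhp2 (7.30), Ncl (11.18), Wdr43 (8.11), Heatr1 (8.04), Noc2l (8.17) and Ftsj3 (7.90). KO mouse 5 lay above the other KO mice for the mean of the 50 factors at 24h (8.09, others 8.02 to 8.04) and for Ncl at 2h (10.90) and 24h (12.47). WT mouse 3 at 0h lay below the other WT mice for Heatr1 (6.55, others 7.47 to 7.78).

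The change from 0h to 12h was called different between genotypes for 4 factors by edgeR's test of the difference itself. Their share was near that of all genes, given above for the same comparison. KO change minus WT change was 1.60 for Rrs1, 1.44 for Gar1, 1.00 for Bop1 and 0.90 for Bms1 on the log2 scale. Without WT mice 1 and 4 the value for Gar1 was 1.06 and was not called (edgeR adjusted p = 0.0709), while those of Rrs1 (0.95), Bop1 (0.63) and Bms1 (0.74) were called. With the 0h library of WT mouse 3 left out too, the value for Gar1 was 0.07, and those of Rrs1 (0.85), Bop1 (0.40) and Bms1 (0.39) were called.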

How the results depend on the processing

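The rises at 6, 12 and 24h against 0h kept their direction in all settings run, and the counts of factors called stayed within 1.5 times except in fits to only the 10 WT libraries compared, with 19 at 6h and 27 at 12h. Smaller counts moved, and the cause was not tested. In comparisons within KO cells, WT libraries enter only through the shared estimate of the spread, the scaling and the filter. Where the share of all genes in the same fit is not given above, a count cannot be set against it. For KO 2h against 0h the count was 6 with library totals, 7 with no filter, 28 without WT mice 1 and 4 and 29 from the 10 libraries compared. For KO 24h against 6h it was 16 without WT mice 1 and 4 and 38 from the 10 libraries. For WT 2h against 0h it was 0 with no filter or from the 10 libraries and 29 without WT mice 1 and 4. For WT 24h against 6h it was 1 with no filter or from the 10 libraries, 26 without WT mice 1 and 4 and 2 with a random replicate block. Between KO and WT at 0h it was 10 without WT mice 1 and 4. At 6h it was 1 with DESeq2 or a random block, 4 without those mice and 10 from the 8 libraries left (an alternative chosen after seeing the data). At 12h it was 4 with DESeq2, 6 from the 10 libraries, 13 without WT mice 1 and 4 and 31 from the 8 libraries. The 13 were 6 higher and 7 lower in KO cells, and most of the 31 were lower. For the difference of changes at 6h it was 1 with DESeq2, 3 with either replicate block and 11 without WT mice 1 and 4, and at 12h 7 with the replicate block and 14 without those mice, most of them lower. The replicate block of the mouse within its genotype moved no other count of calls beyond 1.5 times. Leaving out WT mice 1 and 4 and the 0h library of WT mouse 3, also chosen after seeing the data, gave 32 calls for KO 2h against 0h, 29 for KO 24h against 6h, 29 for WT 2h against 0h and 31 for WT 24h against 6h. Between KO and WT 8 factors were called at 0h, 1 at 2h, 12 at 6h, while 26 were at 12h, and for the difference of changes 19 at 6h and 24 at 12h, with most calls lower in KO cells at 6 and 12h.

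Leaving out each mouse in turn gave 2 to 22 calls for KO 2h, 50 for KO 6h and 12h, 49 to 50 for KO 24h, 1 to 10 for KO 24h against 6h, 0 to 11 for WT 2h, 39 to 48 for WT 6h, 39 to 50 for WT 12h, 39 to 48 for WT 24h and 1 to 10 for WT 24h against 6h. Between KO and WT it gave 0 to 6 at 0h, 0 to 1 at 2h, 0 to 7 at 6h, 1 to 11 at 12h and 0 at 24h, and for the difference of changes 0 at 2h, 0 to 7 at 6h, 1 to 8 at 12h and 0 at 24h. These ranges are given without the shares of all genes in the same refits.

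Some single factors changed sign with a call. Without WT mice 1 and 4, KO minus WT was 0.46 for Nop58 and 0.52 for Dkc1 at 0h and -0.33 for Wdr43 at 6h, and the difference of changes was -0.84 for Nop58, -0.52 for Nop56 and -0.41 for Wdr43 at 6h and -0.73 for Nop58 and -0.42 for Nop56 at 12h. From the 8 libraries, KO minus WT was -0.37 for Nhp2 and -0.36 for Ftsj3 at 6h, and -0.27 for Nop58, -0.24 for Wdr43, -0.26 for Heatr1 and -0.26 for Ftsj3 at 12h. With WT mice 1 and 4 and the 0h library of WT mouse 3 left out, KO minus WT was 0.65 for Nhp2 and 0.44 for Ncl at 0h, 0.45 for Dkc1 at 2h, -0.37 for Nop58, -0.32 for Wdr43 and -0.37 for Ftsj3 at 6h, and -0.31 for Nop58, -0.28 for Wdr43, -0.3 for Heatr1 and -0.3 for Ftsj3 at 12h. The difference of changes was then -0.7 for Nop58, -1.03 for Nhp2, -0.71 for Ncl, -0.48 for Wdr43 and -0.57 for Ftsj3 at 6h and -0.65, -1.07, -0.63, -0.44 and -0.51 for the same factors at 12h. Library totals moved the median of all genes by up to 0.22 on the log2 scale.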
